A study of Mus musculus with 25 samples.

Results

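The genes described here are 39 genes of fatty acid oxidation and of the control exerted on it by PPAR-alpha. They were taken by symbol from a fixed list, out of 37085 gene symbols in the count table. Their values in this study were not part of the rule, but the list was chosen with earlier results of these data known. All 39 were found, and 37 of them were among the 11869 genes with enough counts to be tested. Acadvl and Acot8 were not. They fall into 11 roles: the receptor, acyl chain activation and the carnitine shuttle, the mitochondrial acyl-CoA dehydrogenases, the later steps of the mitochondrial cycle, electron transfer, the enzymes for unsaturated chains, peroxisomal oxidation, acyl-CoA thioesterases, omega oxidation, the ketone body enzyme Bdh1, and other targets of the receptor.

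PPAR-alpha, encoded by Ppara, is a nuclear receptor that binds fatty acids and, as a heterodimer with RXR, switches on genes for fat burning in the liver, most of all during fasting. Long chains are activated to acyl-CoA, carried into mitochondria as carnitine esters and shortened in repeated cycles of dehydrogenation, hydration, dehydrogenation and thiolysis, and the liver turns much of the acetyl-CoA into ketone bodies. Peroxisomes shorten very long and branched chains, and Cyp4a enzymes oxidise the far end of the chain.

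Hepatocytes of C57BL/6 mice were sorted, and the 3' ends of their polyadenylated transcripts were sequenced. The comparison asks how these cells differ after each length of feeding with a diet that brings on NASH (non-alcoholic steatohepatitis), a state of fat, inflammation and scarring in the liver. Of the 25 libraries, 5 came from mice on normal diet, which count as 0 weeks on the NASH diet, and 4, 3, 4, 3, 3 and 3 from mice after 1, 2, 3, 4, 5 and 6 weeks of it. Livers were perfused with collagenase and hepatocytes pelleted at low speed before the sort. The sources used here give neither the sorting gate, the make-up of the diet, the age of the animals nor any genotype beyond the strain. Whether each library is a mouse of its own is not stated either, and the p-values then rest on the spread among libraries, which may be technical.

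Library totals ran from 5281143 to 10015751 counts. A level is in CPM, a gene's share of its library scaled up to the usual unit, and was corrected for composition by TMM (trimmed mean of M values). A 3' tag is counted once per transcript end. Levels are compared here between libraries and not between genes. All 10 hepatocyte markers were detected in every library, with summed levels of 114400 to 123900 CPM on normal diet, 85080 to 93730 in week 5 and 89620 to 95030 in week 6. The median difference of these 10 genes was -0.47 on the log2 scale in week 5, with 5 of them lower, and -0.45 in week 6, with 5 lower. Markers of other liver cells were present in every group. The Kupffer list summed to 109 to 591 CPM on normal diet and 1646 to 1785 in week 5, with 10 of its 10 genes higher. The endothelial list went from 142 to 562 CPM up to 1309 to 1515, also with 10 of 10 higher, and the stellate list from 70.0 to 138 CPM up to 432 to 913, with 9 of 10 higher. Week 6 gave 9, 10 and 9 higher genes of 10 in the same lists, and sums of 1364 to 1679, 1014 to 1331 and 425 to 745 CPM. Of 8 monocyte genes, 5 were higher in week 5 and 6 in week 6. Their sum was 37.7 to 264 CPM on normal diet, 492 to 648 in week 5 and 474 to 722 in week 6. Of 5 cholangiocyte genes only 2 could be tested, with 1 higher in week 5 and 1 in week 6. Their sum was 35.5 to 58.6 CPM on normal diet, 23.7 to 47.4 in week 5 and 39.6 to 48.9 in week 6. On normal diet Krt7 of this list had 0 counts, Krt19 and Epcam 2 each, Spp1 106 and Sox9 1222. In week 6 these were 6, 6, 10, 230 and 775 counts.

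**Figure D1:**
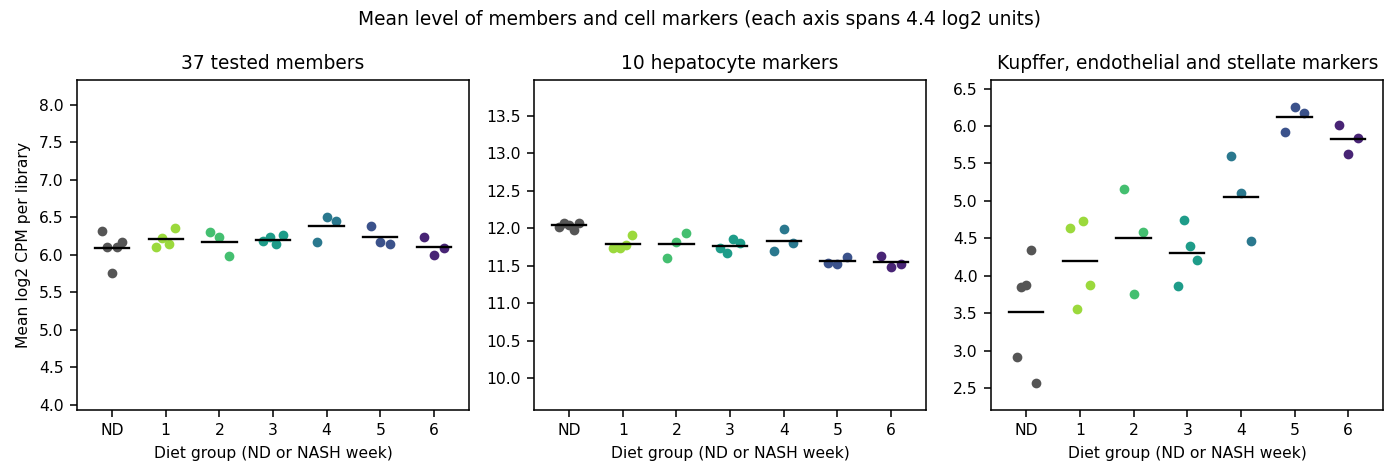
Mean log2 CPM per library (y axis) by diet group (x axis: ND for normal diet, then weeks on the NASH diet) of the 37 tested oxidation genes, 10 hepatocyte markers and the markers of Kupffer, endothelial and stellate cells. Points are libraries and lines are group means. The oxidation genes lay between group means of 6.09 and 6.38, while the marker mean of other cells went from 3.51 on normal diet to 6.12 in week 5.

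The mean log2 level of the 37 tested genes was 6.09 ± 0.208 (SD, n = 5) on normal diet, 6.38 ± 0.177 (n = 3) in week 4, 6.23 ± 0.131 (n = 3) in week 5 and 6.11 ± 0.119 (n = 3) in week 6. Weeks 1, 2 and 3 lay at 6.21, 6.18 and 6.20. Normal diet libraries ran from 5.76 (library 3) to 6.32. Taken as a median over the genes, the log2 difference from normal diet was 0.13 in week 4, -0.01 in week 5 and -0.17 in week 6. The mean over Kupffer, endothelial and stellate markers, in contrast, was 3.51 ± 0.739 on normal diet and 6.12 ± 0.178 in week 5. All libraries of weeks 5 and 6 (5.63 to 6.26) exceeded all of weeks 1 to 3 (3.55 to 5.16) on this measure, so late weeks and other-cell RNA cannot be told apart here. In bulk RNA, fewer cells of a type and less RNA per cell also cannot be told apart.

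Library 2 of week 6 stood apart. It was the lowest of all 25 libraries for 11 of the 37 tested oxidation genes and the highest for 1, 32.4% of them, against 17% of all tested genes. Etfdh was at 92.0, 36.0 and 83.6 CPM in the 3 week 6 libraries, Etfa at 135, 59.3 and 119, and Ehhadh at 16.3, 6.33 and 19.1. Acads went the other way, at 147, 249 and 143 CPM. Without this library week 6 gave 2 genes higher and 6 lower, with Acaa2 and Acads (edgeR adjusted p = 0.0123 and 0.0361) added and Etfa lost, and the contrast of weeks 5 and 6 with weeks 1 to 3 gave 3 higher and 14 lower, with all its 16 calls kept. Normal diet library 3 was the lowest for 7 genes and the highest for 1 (21.6%, against 8.14% of all genes).

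Few of these genes differed from normal diet in the first weeks, and calls in weeks 5 and 6 went both ways. Calls rest on edgeR's quasi-likelihood test over all 11869 genes, with p-values adjusted by Benjamini-Hochberg and a threshold of 0.05. In week 1, 1 of 37 was higher (Vnn1) and 0 lower, where 0.219% of all genes were higher and 0.977% lower. In week 2, 0 were called, with 0.227% of all genes higher and 0.657% lower. Week 3 also gave 0, with 0.244% higher and 0.607% lower. At an unadjusted p under 0.05, 5 of the 37 passed in week 1, 2 in week 2 and 3 in week 3. Of all 11869 genes 1238, 1443 and 1635 did. In week 4 these were 10 of the 37 and 2782 of all genes. DESeq2 and limma voom likewise called 0 of the 37 in weeks 2 and 3. Of all genes DESeq2 called 78 higher and 120 lower in week 2, and 78 and 139 in week 3. Limma voom called 19 and 81, and 18 and 72. In week 4, 2 were higher (Acot2 and Vnn1) and 0 lower, beside 5.43% and 2.86% of all genes. In that week 8 of 10 stellate, 4 of 10 endothelial, 1 of 10 Kupffer and 2 of 8 monocyte markers were also higher and 2 of 10 hepatocyte markers lower, and their part in the rises was not tested. Week 5 gave 3 higher (8.11%, against 19.1% of all genes) and 5 lower (13.5%, against 16.3%). Week 6 gave 2 higher (5.41%, against 16.3%) and 5 lower (13.5%, against 10.5%). With weeks 1 to 3 pooled, 1 was higher and 0 lower than on normal diet, where 0.548% and 1.74% of all genes were. The contrast of weeks 5 and 6 with weeks 1 to 3 gave 3 higher (8.11%, against 20.5% of all genes) and 13 lower (35.1%, against 18.4%). The differences between these shares were not tested and turn with the scaling. Scaled by library size alone, 32.4% of the 37 genes and 31.9% of all genes were higher in week 5, and 2.7% and 4.31% were lower in late against early weeks.

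**Figure D2:**
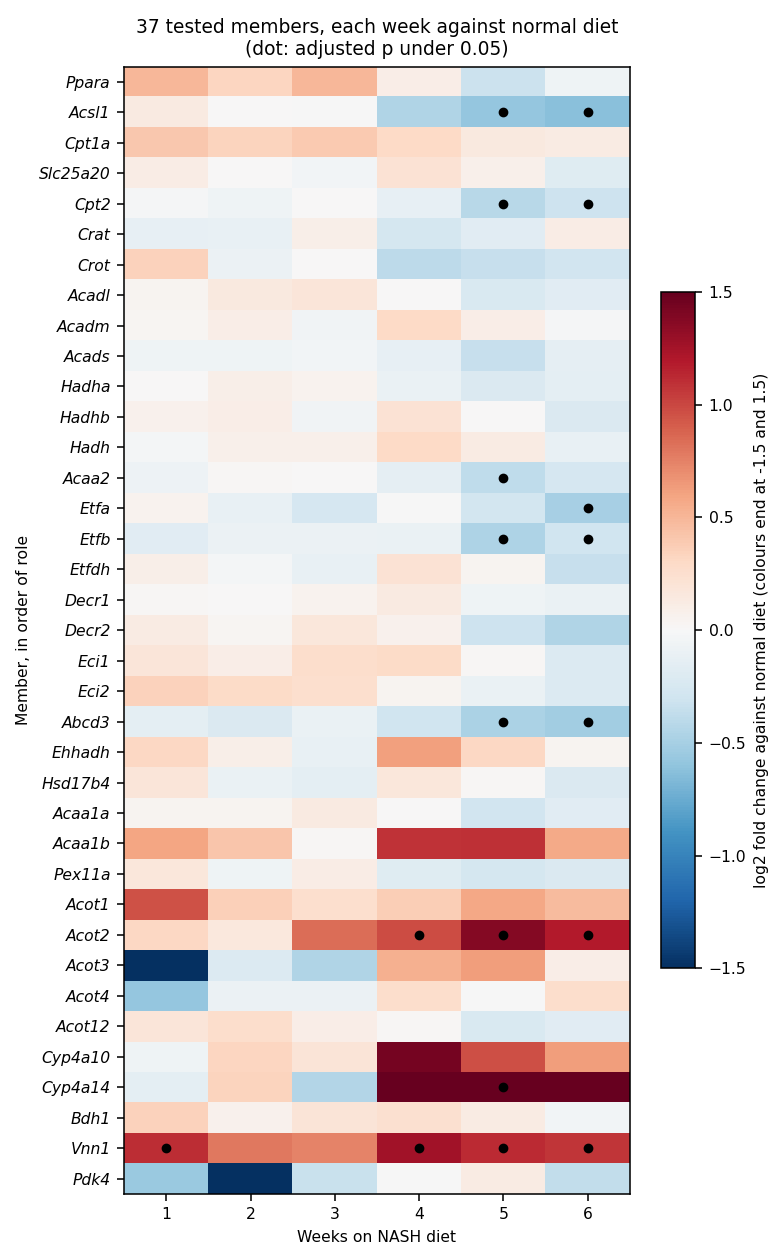
Log2 fold change of the 37 tested genes (rows, in order of role) in each week against normal diet (columns, weeks on the NASH diet), red for higher and blue for lower, with a dot at an adjusted p under 0.05. Dots fall on Vnn1 in weeks 1, 4, 5 and 6, on Acot2 from week 4, on Cyp4a14 in week 5, and on Acsl1, Cpt2, Acaa2, Etfa, Etfb and Abcd3 in week 5 or 6. With library size as the only scaling the blue dots are lost and Etfb in week 6 turns to 0.00.

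These weekly comparisons share the same 5 normal diet libraries. The median log2 difference of the 37 genes from normal diet was 0.06, 0.04, 0.01, 0.13, -0.01 and -0.17 in weeks 1 to 6, beside 0.02, 0.00, 0.02, -0.01, -0.05 and -0.05 over all tested genes. Counts of called genes turned on single libraries in the small groups. The week 1 count was 0 without normal diet library 5 or week 1 library 1 or 4, and 2 without normal diet library 3. In week 4 it was 1 without normal diet library 2 or 3 or week 4 library 1 or 2, and 4 without week 4 library 3. In week 6 it was 4 without normal diet library 5, and was 8 there without week 6 library 2. For weeks 1 to 3 pooled it was 2 without normal diet library 1 and 0 without normal diet library 3, 4 or 5.

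All falls reported here are relative to the other genes of the same library. When counts were scaled by library size alone, the median of all genes shifted up by 0.335 in week 5, 0.303 in week 6 and 0.215 in the late against early contrast. The split then became 12 higher and 0 lower in week 5, 2 and 0 in week 6, and 4 and 1 in the late against early contrast. For all genes it was 3790 higher and 364 lower in week 5, 3269 and 229 in week 6, and 3653 and 511 in the late against early contrast. In week 4 the split was 6 and 0 (16.2% and 0%, against 8.7% and 1.26% of all genes). For weeks 1 to 3 pooled it was 2 and 0 (5.41% and 0%, against 1.52% and 1.11%). All 12 higher calls were kept under that scaling, and 1 of 23 lower calls was, that of Acsl1 in the late against early contrast. Medians of gene groups given below move by the same shifts, so negative ones nearer to 0 than the shift change sign. The 9 genes called higher in week 5 by library size alone were Acaa1b, Acadm, Acot1, Bdh1, Cpt1a, Hadh, Hadhb, Hsd17b4 and Slc25a20. When the fit held only the groups compared, 26 of the 35 calls were kept, and Vnn1 in weeks 1 and 4 and in weeks 1 to 3, Acot2 in week 4, Acsl1 and Cyp4a14 in week 5, and Cpt2, Etfa and Etfb in week 6 were lost. A fit with the other-cell marker mean as a covariate kept 1 of the 35 calls, Vnn1 in week 1. It added a call of Cpt1a, higher in weeks 1 to 3 (edgeR adjusted p = 0.0411). Of all genes that fit called 0 higher and 13 lower in week 5, and 0 and 0 in late against early weeks. The loss of calls is thus not particular to these genes. As the marker mean did not overlap between early and late weeks, the fit cannot separate the markers from the weeks. In that fit the week 5 difference of Acot2 was 1.32 (edgeR adjusted p = 0.582), where it had been 1.38, and that of Vnn1 1.34 (edgeR adjusted p = 0.516), where it had been 1.12. The week 5 difference of Acsl1 was -0.13 in place of -0.58, and that of Abcd3 -0.02 in place of -0.48.

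Ppara, the receptor itself, was lower in the late weeks than in the early ones. Its level on normal diet was 251, 125.5, 142, 138 and 157 CPM in the 5 libraries. Over the 11 libraries of weeks 1 to 3 it had a lowest value of 132, a median of 217 and a highest of 291.5 CPM, and over the 6 of weeks 5 and 6 these were 113, 141 and 174. Early libraries were mostly high and late ones mostly low, but some early libraries lay within the late range. The fall from early to late weeks was 1.56-fold (log2 -0.64 ± 0.20, edgeR adjusted p = 0.0132). It was -0.43 (edgeR adjusted p = 0.081) with library size alone and 0.00 with the marker covariate. Against normal diet Ppara was not called in any week. Its largest differences were 0.50 ± 0.25 in week 1 and 0.50 ± 0.25 in week 3 (edgeR adjusted p = 0.51 and 0.386).

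Among the 6 genes of activation and the carnitine shuttle, 2 were lower in week 5, 2 in week 6 and 2 in late against early weeks, and 0 were higher in any comparison. The group median was -0.25 in week 5, -0.24 in week 6 and -0.29 late against early. Acsl1, which joins long-chain fatty acids to coenzyme A, was at 1294, 825.5, 794, 778 and 773 CPM on normal diet. It had a lowest value of 759.5, a median of 850.3 and a highest of 1169 CPM over weeks 1 to 3. The 3 libraries each of weeks 4, 5 and 6 were at 538, 638 and 788, at 727, 535 and 525, and at 565, 581 and 593 CPM. Every library of weeks 5 and 6 lay below every library of the normal diet and of weeks 1 to 3, and normal diet library 1 stood far above the other 4. Acsl1 fell 1.5-fold (log2 -0.58 ± 0.18, edgeR adjusted p = 0.0114) in week 5 and 1.54-fold (log2 -0.62 ± 0.18, edgeR adjusted p = 0.00961) in week 6. From early to late weeks it fell 1.56-fold (log2 -0.64 ± 0.12, edgeR adjusted p = 0.000204), the smallest adjusted p of any of the 37 genes. Without week 6 library 2 the week 6 value was -0.63 (edgeR adjusted p = 0.028). The week 5 call was lost without week 5 library 2 or 3 (edgeR adjusted p = 0.0656 and 0.0655). Both weekly calls were lost without normal diet libraries 1 and 5, the lowest in other-cell markers, at -0.42 and -0.46 (edgeR adjusted p = 0.0606 and 0.0517). With library size alone they were -0.25 and -0.32 (edgeR adjusted p = 0.267 and 0.167).

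Cpt2, the inner membrane enzyme that frees the acyl chain from carnitine inside the mitochondrion, was also low in the late weeks. Its libraries on normal diet were at 90.2, 81.1, 81.7, 73.5 and 84.5 CPM. Weeks 1 to 3 ran from 73.2 to 93.4 CPM with a median of 79.9, and weeks 4, 5 and 6 were at 73.7, 74.9 and 77.2, at 64.1, 55.1 and 65.8, and at 63.2, 74.95 and 60.8. The 3 week 5 libraries were below all others outside week 6. In week 6, libraries 1 and 3 were as low and library 2 overlapped the normal diet. Cpt2 fell 1.33-fold (log2 -0.41 ± 0.10, edgeR adjusted p = 0.00275) in week 5, 1.24-fold (log2 -0.31 ± 0.10, edgeR adjusted p = 0.0262) in week 6, and 1.26-fold (log2 -0.33 ± 0.07, edgeR adjusted p = 0.000673) from early to late weeks. The week 6 call was lost without normal diet library 1 or 5 or week 6 library 1 or 3 (edgeR adjusted p = 0.0657, 0.0733, 0.109 and 0.126), and was -0.41 (edgeR adjusted p = 0.00875) without library 2. Without normal diet libraries 1 and 5 it was -0.25 (edgeR adjusted p = 0.135). With library size alone the 3 values were -0.08, -0.01 and -0.12, and no call remained.

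The other 4 genes of the group were not called. Cpt1a, the outer membrane transferase that commits long chains to oxidation, was at 143 ± 32.3 CPM on normal diet (SD, n = 5), 189 ± 34.9 in week 1 (n = 4), 187 ± 18.4 in week 3 (n = 4) and 155 ± 25.7 in week 6 (n = 3). Its largest difference was 0.40 ± 0.16 in week 1 (edgeR adjusted p = 0.289), and its libraries overlapped. Over weeks 1 to 3 it was 0.38 ± 0.13 (edgeR adjusted p = 0.131). It was called there without normal diet library 1 (edgeR adjusted p = 0.0337) or with library size alone (edgeR adjusted p = 0.0369). With the marker covariate it was 0.56 over weeks 1 to 3 and also called (edgeR adjusted p = 0.0411). Crot, which makes carnitine esters of medium chains in peroxisomes, was -0.41 ± 0.17 in late against early weeks (edgeR adjusted p = 0.0557), with 359 ± 35.9 CPM in week 1 and 224 ± 53.9 in week 5. Slc25a20, the carnitine carrier of the inner membrane, lay between 75.1 and 119 CPM over all 25 libraries, and Crat, the transferase for acetyl groups, between 5.91 and 11.6. Their differences over the 8 comparisons ran from -0.19 to 0.22 and from -0.26 to 0.11 on the log2 scale. The 3' end of Crat lies within the span of Dolpp1 on the opposite strand.

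Of the acyl-CoA dehydrogenases, which start each cycle for chains of different length, 1 of 3 tested was lower in late against early weeks, and 0 of 3 were called against normal diet in any week. The group median late against early was -0.18. Acadl, the long-chain enzyme, was at 209, 174.5, 175.5, 168 and 189 CPM on normal diet. Over weeks 1 to 3 its lowest, median and highest values were 157, 193 and 233 CPM. In week 5 it was at 162, 155 and 154 and in week 6 at 157, 152 and 179.6 CPM. The late libraries were narrow and low, and the early ones ranged from that level upward, so the ranges overlapped. Acadl fell 1.25-fold (log2 -0.32 ± 0.09, edgeR adjusted p = 0.00758) from early to late weeks, and was -0.11 (edgeR adjusted p = 0.372) with library size alone. Acadm, the medium-chain enzyme, lay between 155.5 and 282 CPM, and Acads, the short-chain enzyme, between 141 and 249. Neither was called, and their differences ran from -0.05 to 0.30 and from -0.34 to -0.04. Acadvl, the very-long-chain enzyme, was nearly absent from the table, with 10 counts in all on normal diet and 11 in week 5, and 0 in 3 libraries, where a count of 0 allows up to 3 counts, or 0.404 to 0.458 CPM. Such limits cover counting error only. Its 3' end lies within the span of Dvl2 on the opposite strand, and no source used here says whether counting used strand. The same holds for Acot8 with Snx21, Acaa1a with Slc22a14, and Acaa1b with Dlec1.

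The mitochondrial cycle is closed by the trifunctional protein (Hadha and Hadhb), the short-chain dehydrogenase Hadh and the thiolase Acaa2. Of these 4 genes, 1 was lower in week 5 and 2 in late against early weeks, with a group median of -0.19 in the latter contrast. Acaa2 was at 927, 796, 862, 785 and 805 CPM on normal diet. It ran from 731 to 902 CPM with a median of 789 in weeks 1 to 3, and was at 717, 739.8 and 833 in week 4, at 669, 634 and 626 in week 5, and at 625.2, 821 and 661 in week 6. All week 5 libraries were lower than any on normal diet or in weeks 1 to 4, while week 6 library 2 reached the normal diet range. Acaa2 fell 1.3-fold (log2 -0.38 ± 0.11, edgeR adjusted p = 0.00667) in week 5 and 1.23-fold (log2 -0.29 ± 0.07, edgeR adjusted p = 0.00249) from early to late weeks. In week 6 it was -0.25 ± 0.10 (edgeR adjusted p = 0.0794) and not called. With library size alone the week 5 and late against early values were -0.04 and -0.08, neither called. Hadha had a lowest value of 295 and a highest of 399 CPM in weeks 1 to 3, and 268 and 360.1 in weeks 5 and 6. It fell 1.17-fold (log2 -0.23 ± 0.08, edgeR adjusted p = 0.0191), a call lost without week 2 library 2, week 5 library 3 or week 6 library 1 or 3 (edgeR adjusted p = 0.0517, 0.0607, 0.0821 and 0.0514). It was -0.02 with library size alone and 0.02 with the marker covariate. Its 3' end lies within the span of Garem2 on the opposite strand. Hadhb lay between 36.8 and 67.6 CPM and Hadh between 255 and 411, and neither was called. The largest difference of Hadh was 0.30 ± 0.11 in week 4 (edgeR adjusted p = 0.0858). In the last 300 bases of its transcripts Hadhb shares 33.5% of its runs of 50 bases with Gm13910 and Gm9108, so its count is uncertain.

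Electrons from the dehydrogenases pass through the flavoprotein made of Etfa and Etfb to Etfdh, which feeds the respiratory chain. Of these 3 genes, 1 was lower in week 5, 2 in week 6 and 1 in late against early weeks. The group median was -0.28 in week 5 and -0.34 in week 6. Etfb had the smallest spread between libraries of a group among the 37 genes, an SD of 0.105 on the log2 scale. It was at 394, 396.5, 395, 353 and 387 CPM on normal diet and, over weeks 1 to 3, had a lowest value of 330.0, a median of 350.0 and a highest of 385. Its week 5 libraries were at 275, 285 and 278.5 and its week 6 libraries at 289.7, 373 and 276 CPM. Week 5 lay below every normal diet and early library, as did libraries 1 and 3 of week 6, but not library 2. Etfb fell 1.38-fold (log2 -0.46 ± 0.10, edgeR adjusted p = 0.00082) in week 5, 1.23-fold (log2 -0.30 ± 0.10, edgeR adjusted p = 0.0266) in week 6, where the value was 0.00 (edgeR adjusted p = 0.984) with library size alone, and 1.2-fold (log2 -0.26 ± 0.07, edgeR adjusted p = 0.00384) from early to late weeks. With library size alone the week 5 and late against early values were -0.12 and -0.05, neither called. The week 6 call was lost without normal diet library 5 or week 6 library 1 or 3 (edgeR adjusted p = 0.059, 0.136 and 0.164), and without normal diet libraries 1 and 5 (edgeR adjusted p = 0.082), and was -0.45 (edgeR adjusted p = 0.00178) without library 2. Etfb shares 49.1% of its 50-base runs at the 3' end with Gm45233, an annotated gene on the same strand, so reads could be split between the 2 symbols. Etfa was at 159, 124.5, 165, 132 and 160.4 CPM on normal diet, 132, 114 and 121 in week 5 and 135, 59.3 and 119 in week 6. The low value is that of week 6 library 2, and libraries 1 and 3 overlapped the normal diet or lay just under it. Etfa fell 1.42-fold (log2 -0.50 ± 0.17, edgeR adjusted p = 0.033) in week 6. The value was -0.22 (edgeR adjusted p = 0.253) without library 2, and the call was also lost without normal diet library 1, 3 or 5 (edgeR adjusted p = 0.0629, 0.066 and 0.0815), without both 1 and 5 (edgeR adjusted p = 0.132) and with library size alone (-0.19). Etfdh was not called, with 89.6 ± 10.0 CPM on normal diet (SD, n = 5) and 70.5 ± 30.2 in week 6 (n = 3), where library 2 made the spread.

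Double bonds in a chain need the isomerases Eci1 and Eci2 and the dienoyl-CoA reductases Decr1 (mitochondrial) and Decr2 (peroxisomal). Against normal diet 0 of the 4 were called by edgeR in any week, and 2 were lower in late against early weeks, where the group median was -0.36. Decr2 was at 401.5, 327, 274.5, 292 and 336 CPM on normal diet. Over weeks 1 to 3 its lowest, median and highest levels were 264, 360.0 and 425 CPM, and in weeks 5 and 6 its libraries were at 269, 272.5 and 249.7, and at 260.4, 167 and 286. Most early libraries were above all late ones, with some early libraries in the late range and week 6 library 2 below everything else. Decr2 fell 1.41-fold (log2 -0.49 ± 0.13, edgeR adjusted p = 0.00325) from early to late weeks. The value was -0.39 (edgeR adjusted p = 0.0133) without week 6 library 2 and -0.28 (edgeR adjusted p = 0.0846) with library size alone. In week 6 against normal diet limma voom called Decr2 lower (log2 -0.48, adjusted p = 0.0483). So did edgeR without week 6 library 3 or normal diet library 3 (edgeR adjusted p = 0.0346 and 0.0458). Eci2 ran from 74.6 to 132 CPM in weeks 1 to 3 (median 107.5) and from 67.5 to 101 in weeks 5 and 6 (median 70.9). Its fall was 1.36-fold (log2 -0.44 ± 0.14, edgeR adjusted p = 0.0132), and -0.24 (edgeR adjusted p = 0.206) with library size alone. Eci2 shares 9.3% of its 3' end runs with Eci3 and overlaps the antisense gene Gm16984. Decr1 had the narrowest range of group means, 0.245 on the log2 scale, and lay between 99.3 and 138 CPM. Eci1 lay between 64.7 and 147 CPM, the lowest being week 6 library 2, with a late against early difference of -0.27 ± 0.12 (edgeR adjusted p = 0.0653).

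Of the 6 genes of peroxisomal oxidation, 1 was lower in week 5, 1 in week 6 and 3 in late against early weeks, and 0 were higher in any comparison. The group median was -0.12, -0.19 and -0.19 in those 3 comparisons. Abcd3, the transporter that brings acyl-CoA across the peroxisomal membrane, was at 573, 437, 499, 453 and 499 CPM on normal diet. Weeks 1 to 3 had a lowest level of 374, a median of 443.5 and a highest of 487 CPM, and weeks 4, 5 and 6 were at 369.8, 376 and 454, at 379, 319 and 363, and at 314, 344.5 and 373. All 6 libraries of weeks 5 and 6 were below all 5 on normal diet, and week 2 library 1 was the early library that reached into the late range. Abcd3 fell 1.39-fold (log2 -0.48 ± 0.11, edgeR adjusted p = 0.0017) in week 5, 1.43-fold (log2 -0.52 ± 0.11, edgeR adjusted p = 0.00125) in week 6 (-0.52 without library 2), and 1.27-fold (log2 -0.35 ± 0.08, edgeR adjusted p = 0.00102) from early to late weeks. None of these calls was lost by leaving out any single library. With library size alone they were -0.14, -0.22 and -0.13 (edgeR adjusted p = 0.283, 0.102 and 0.136). The thiolase Acaa1a had levels of 55.0 to 78.4 CPM in weeks 1 to 3 and 45.8 to 62.6 in weeks 5 and 6. It fell 1.23-fold (log2 -0.30 ± 0.10, edgeR adjusted p = 0.0188), a call lost without week 2 library 2, week 5 library 3 or week 6 library 1 (edgeR adjusted p = 0.0503, 0.0578 and 0.0628). It was -0.09 with library size alone and 0.05 with the marker covariate. Its close copy Acaa1b was not called and lay on the other side of zero. It was at 8.62 ± 4.44 CPM on normal diet (SD, n = 5) and 18.9 ± 4.01 in week 5 (n = 3). The difference was 1.10 ± 0.44 on the log2 scale (edgeR adjusted p = 0.0596). DESeq2 (adjusted p = 0.024) and limma voom (adjusted p = 0.0246) called it. So did edgeR with library size alone, at least 5 CPM in 3 libraries, or only the groups compared (edgeR adjusted p = 0.0169, 0.0473 and 0.0352). The remaining alternatives did not, save the fit without normal diet library 3 (edgeR adjusted p = 0.0319). Acaa1a shares 31.7% of its 3' end runs with Acaa1b, and Acaa1b 20.7% of its own, so reads of the pair could be assigned to either. Pex11a, which acts in peroxisome division, fell 1.24-fold (log2 -0.31 ± 0.12, edgeR adjusted p = 0.0378) from early to late weeks. Levels were 106 to 168 CPM early and 91.2 to 131 late, a broad overlap. Its call was lost when 1 of 10 libraries was left out, namely week 1 library 1 or 2, week 2 library 1 or 2, week 3 library 1 or 4, week 5 library 2 or 3, and week 6 library 1 or 3, with edgeR adjusted p from 0.0503 to 0.117. Library size alone gave -0.10, and DESeq2 an adjusted p of 0.0586. The bifunctional enzymes Ehhadh and Hsd17b4, which hydrate and dehydrogenate the chain with opposite stereochemistry, were not called. Ehhadh was at 13.7 ± 3.48 CPM on normal diet (SD, n = 5) and 20.7 ± 8.18 in week 4 (n = 3), 0.61 ± 0.28 (edgeR adjusted p = 0.188), and Hsd17b4 lay between 104 and 209.7 CPM.

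Acyl-CoA thioesterases split acyl-CoA back into free acid and coenzyme A. Of the 5 tested, 1 was higher in each of weeks 4, 5 and 6, and 2 were higher and 1 lower in late against early weeks. The group median was 0.59 in week 5 and 0.38 late against early. Acot2, the mitochondrial long-chain enzyme, was at 14.7, 6.04, 5.30, 10.5 and 10.5 CPM on normal diet. Over weeks 1 to 3 it had a lowest level of 5.39, a median of 12.2 and a highest of 23.7 CPM, and the libraries of weeks 4, 5 and 6 were at 15.7, 24.1 and 15.5, at 23.3, 26.1 and 23.9, and at 25.01, 15.4 and 23.7. Each of these 9 libraries was above all 5 on normal diet, and the week 5 libraries were the most even. Acot2 rose 1.97-fold (log2 0.98 ± 0.29, edgeR adjusted p = 0.0388) in week 4, 2.6-fold (log2 1.38 ± 0.28, edgeR adjusted p = 0.000615) in week 5 and 2.28-fold (log2 1.19 ± 0.29, edgeR adjusted p = 0.00341) in week 6. It was 1.8-fold (log2 0.85 ± 0.19, edgeR adjusted p = 0.00136) higher in late than in early weeks. The week 4 call was lost without normal diet library 2, 3 or 5 or week 4 library 1 or 2 (edgeR adjusted p = 0.0844, 0.0718, 0.0619, 0.106 and 0.224). The calls of weeks 5 and 6 were kept without any single library, with 1.38 (edgeR adjusted p = 0.00247) in week 6 without library 2. Acot12, a cytosolic enzyme that hydrolyses acetyl-CoA, was at 48.6, 50.4, 44.1, 35.6 and 50.0 CPM on normal diet. Its early libraries had a lowest level of 43.5, a median of 49.0 and a highest of 62.5 CPM, and those of weeks 5 and 6 were at 41.3, 36.0 and 40.1, and at 34.4, 41.4 and 45.8. Late levels were low but overlapped both the normal diet and the early weeks. Acot12 fell 1.3-fold (log2 -0.38 ± 0.10, edgeR adjusted p = 0.00374) from early to late weeks, with -0.17 (edgeR adjusted p = 0.185) when scaled by library size alone.

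Acot3, a peroxisomal enzyme for long chains, was close to the limit of detection. It had 30 counts in all over the 5 normal diet libraries, 3 over the 4 of week 1, 19 in week 2, 19 in week 3, 41 in week 4, 44 in week 5 and 25 in week 6. In CPM these were 1.09, 0.863, 0, 1.48 and 1.75 on normal diet, 0.16, 0, 0 and 0.306 in week 1, 2.53, 1.07 and 1.07 in week 5 and 0.983, 1.58 and 0.736 in week 6. Week 1 was the low group, and late and early libraries overlapped. A count of 0 in a week 1 library allows up to 3 counts, or 0.412 to 0.434 CPM. The call of a higher level in late than in early weeks (log2 1.59 ± 0.48, edgeR adjusted p = 0.00986) was kept without any single library but rests on these small counts. In week 1 Acot3 was not called by edgeR (edgeR adjusted p = 0.102), while DESeq2 called it. Acot1, the cytosolic long-chain enzyme, was not called, with 10.4 ± 4.61 CPM on normal diet (SD, n = 5) and 20.2 ± 5.30 in week 1 (n = 4), 0.95 ± 0.31 (edgeR adjusted p = 0.174). Acot4, a peroxisomal enzyme for dicarboxylic chains, lay between 1.44 and 8.97 CPM and was not called. Acot8, also peroxisomal, was not tested, with 13 counts on normal diet, 17 in week 5 and 0 in 4 libraries, where 0 allows up to 0.428 to 0.544 CPM. The 3' ends of Acot1, Acot2, Acot3 and Acot4 shared 0, 0.797, 0 and 0.996% of their 50-base runs with any other gene. That of Acot4 lies within the annotated genes Gm49366 on the same strand and 4732463B04Rik on the opposite strand.

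Receptor and RXR bind a direct repeat of the letters AGGTCA with a spacer of 1 base, AGGTCANAGGTCA. It was searched on both strands in the 250 bases before the start of each gene in the RefSeq promoter table (GRCm38.p6), which has an entry for 32 of the 39 genes. Entries for Crat, Cyp4a10, Acaa2, Vnn1, Decr1, Cyp4a14 and Hsd17b4 were missing. With at most 1 of the 12 fixed letters different, 1 of these 32 genes (3.12%) and 153 of all 27025 genes with an entry (0.566%) held a match. With at most 2 different, 3 of 32 (9.38%) and 1005 of all (3.72%) did, and with 0 different, 0 of 32 and 11 of all (0.0407%). These 3 matches are shown because they are the closest ones among the genes described. Capitals mark the match, which lies on the strand opposite to the gene in each. Sequences run 5′ to 3′ on the gene's strand. Acot12 (chr13:91741386-91741448, plus strand, 1 letter different) has it 110 to 98 bases before its start, Acot4 (chr12:84038341-84038378, plus strand, 2 different) 13 to 1 bases, and Etfa (chr9:55512283-55512345, minus strand, 2 different) 77 to 65 bases.
Acot12: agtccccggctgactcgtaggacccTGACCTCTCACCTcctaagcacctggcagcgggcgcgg
Acot4: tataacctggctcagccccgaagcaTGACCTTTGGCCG
Etfa: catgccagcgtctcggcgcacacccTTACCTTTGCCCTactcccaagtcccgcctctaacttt
Of these 3 genes, Acot12 was lower in late than in early weeks, Etfa was lower in week 6, a call lost without library 2, and Acot4 was not called. A match describes letters only.

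Omega oxidation is represented by Cyp4a10 and Cyp4a14, fatty acid hydroxylases that are classical targets of the receptor in mouse liver. Of the 2, Cyp4a14 was called higher in week 5 and in late against early weeks, and Cyp4a10 in no comparison. The medians of the pair were 1.86, 1.57 and 1.06 in weeks 4, 5 and 6. Cyp4a14 was at 25.1, 12.6, 3.90, 55.9 and 84.9 CPM on normal diet, a wide range. Weeks 1 to 3 ran from 9.40 to 92.5 CPM with a median of 28.6, and the libraries of weeks 4, 5 and 6 were at 90.7, 313 and 121, at 114, 212 and 164, and at 173, 67.6 and 65.5. All libraries of weeks 4 and 5 lay above the highest on normal diet. In week 6 library 1 did so, and libraries 2 and 3 did not. Cyp4a14 rose 4.51-fold (log2 2.17 ± 0.74, edgeR adjusted p = 0.0282) in week 5, and its late level was above the early one by 3.79-fold (log2 1.92 ± 0.51, edgeR adjusted p = 0.00581). In week 4 it was 2.27 ± 0.74 (edgeR adjusted p = 0.0632), called by DESeq2 (adjusted p = 0.0313) and limma voom (adjusted p = 0.0205) but not by edgeR, and its week 6 level did not pass edgeR's test (edgeR adjusted p = 0.149) but did pass that of limma voom (adjusted p = 0.031). The week 5 call was lost without normal diet library 1 or 2 or week 5 library 2 or 3 (edgeR adjusted p = 0.0608, 0.061, 0.0957 and 0.0599), and the late against early call was kept without any single library. Cyp4a10 was at 93.7, 43.3, 10.8, 101 and 143 CPM on normal diet and at 167, 281 and 186.5 in week 4, where all libraries were above the normal diet. It was at 144, 175 and 140.1 in week 5 and 176, 119.7 and 65.6 in week 6, overlapping the normal diet in both. It was not called by edgeR, with 1.44 ± 0.52 in week 4 (edgeR adjusted p = 0.0958), but was called by limma voom in weeks 4 and 5 (limma voom adjusted p = 0.0365 and 0.0438). Both genes were lowest in normal diet library 3, and neither shares any 50-base run of its 3' end with the other.

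Vnn1, a pantetheinase that releases a precursor of coenzyme A and a known target of the receptor, was the earliest of these genes to be called. It was at 11.4, 9.49, 2.81, 7.01 and 5.48 CPM on normal diet. Weeks 1, 2 and 3 were at 15.5, 12.3, 14.2 and 20.6, at 14.6, 13.3 and 9.83, and at 11.5, 15.3, 9.32 and 12.3 CPM. Weeks 4, 5 and 6 were at 14.5, 19.8 and 17.8, at 19.3, 14.8 and 13.0, and at 14.6, 16.0 and 15.0 CPM. Normal diet libraries were low and spread out, all libraries of weeks 1, 4, 5 and 6 lay above them, and weeks 2 and 3 overlapped their upper end. Vnn1 rose 2.16-fold (log2 1.11 ± 0.25, edgeR adjusted p = 0.0193) in week 1, 2.4-fold (log2 1.26 ± 0.26, edgeR adjusted p = 0.00573) in week 4, 2.17-fold (log2 1.12 ± 0.26, edgeR adjusted p = 0.00169) in week 5 and 2.1-fold (log2 1.07 ± 0.27, edgeR adjusted p = 0.00379) in week 6. In weeks 2 and 3 it was 0.79 ± 0.27 and 0.74 ± 0.25 (edgeR adjusted p = 0.208 and 0.198), not called. Over weeks 1 to 3 it was 1.84-fold (log2 0.88 ± 0.21, edgeR adjusted p = 0.0217) higher than on normal diet, and late against early it was 0.21 ± 0.18 (edgeR adjusted p = 0.363). The week 1 call was lost without normal diet library 5 or week 1 library 1 or 4 (edgeR adjusted p = 0.0683, 0.0516 and 0.0946), and that of weeks 1 to 3 without normal diet library 3, 4 or 5 (edgeR adjusted p = 0.0545, 0.054 and 0.0773). Those of weeks 4, 5 and 6 were kept without any single library, with 1.03 in week 6 without library 2. Bdh1, the dehydrogenase that interconverts the main ketone bodies, was not called. It was at 164 ± 35.8 CPM on normal diet (SD, n = 5) and 208 ± 29.7 in week 1 (n = 4), 0.35 ± 0.14 (edgeR adjusted p = 0.358). Pdk4, a kinase that turns off pyruvate dehydrogenase and so favours fat as fuel, had 41 counts on normal diet, 10 in week 2 and 42 in week 5, and was not called. Its lowest difference was -1.55 ± 0.64 in week 2 (edgeR adjusted p = 0.313).

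**Figure D3:**
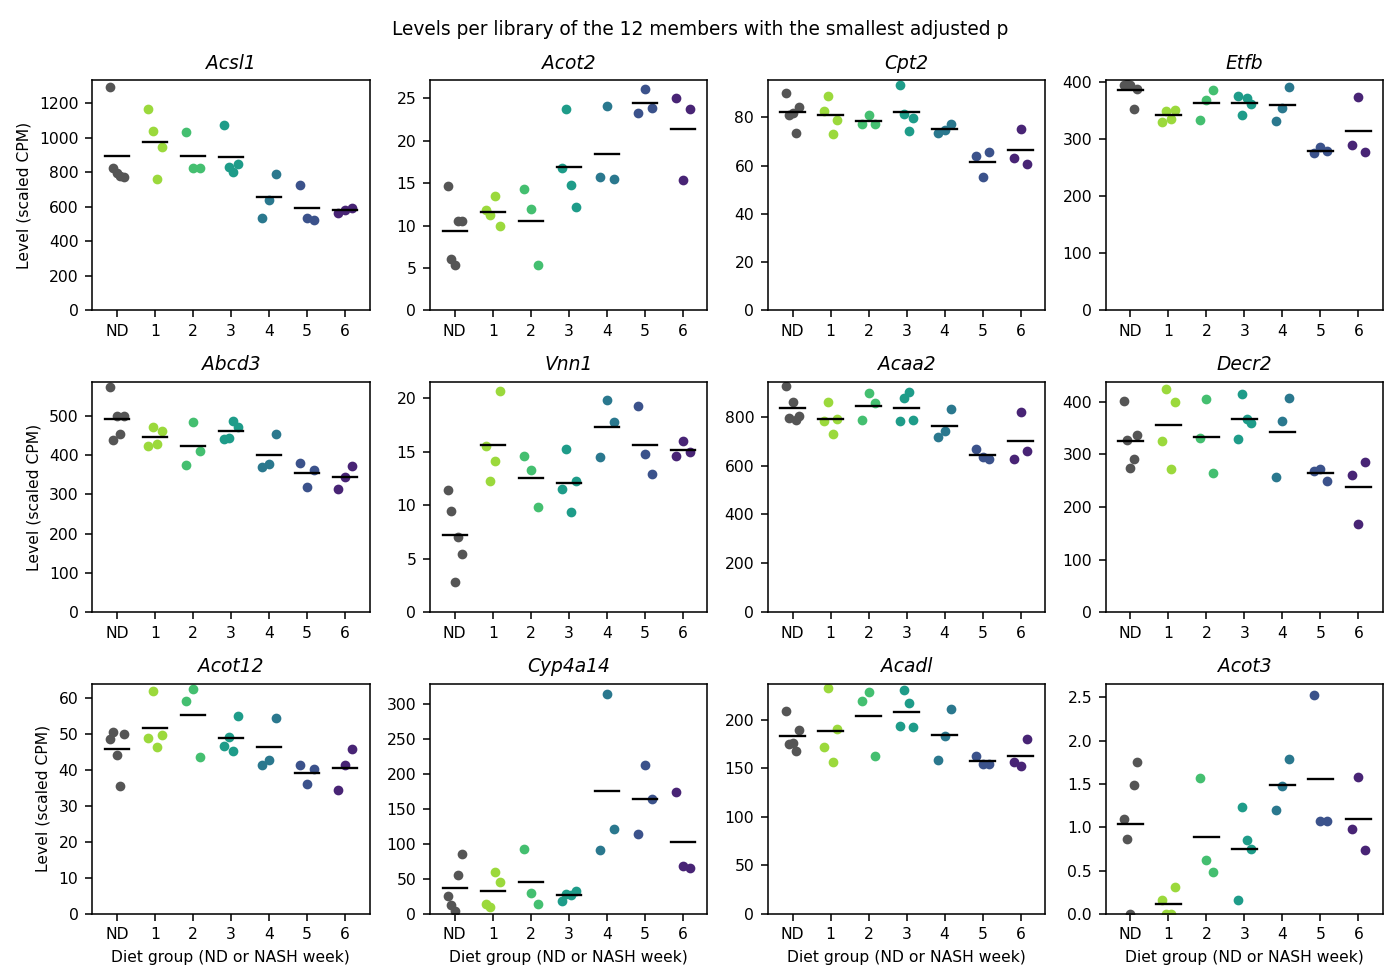
Scaled CPM per library (y axis, from 0) of the 12 genes with the smallest adjusted p, by diet group (x axis: ND for normal diet, then weeks 1 to 6). Points are libraries and lines are group means. Acsl1, Cpt2, Etfb, Abcd3 and Acaa2 are lower in week 5 than on normal diet, where library size as the only scaling ends the calls, and Acot2, Vnn1 and Cyp4a14 are high in week 5 under both scalings.

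The contrast of weeks 5 and 6 with weeks 1 to 3, which leaves out the normal diet, gave the most calls. Of the 13 genes that fell, 2 belong to activation and the shuttle (Acsl1, Cpt2), 1 to the dehydrogenases (Acadl), 2 to the later mitochondrial steps (Hadha, Acaa2), 1 to electron transfer (Etfb), 2 to unsaturated chains (Decr2, Eci2), 3 to peroxisomes (Abcd3, Acaa1a, Pex11a) and 1 to the thioesterases (Acot12), beside Ppara itself. Falls were small, from -0.23 for Hadha to -0.64 for Acsl1 on the log2 scale. Rises were larger, from 0.85 for Acot2 to 1.92 for Cyp4a14. Over the 37 genes the median was -0.16, with 25 below 0 and 12 above, beside -0.04 over all tested genes. The 10 hepatocyte markers had a median of -0.27 in the same contrast, with 6 of 10 lower and 0 higher. Kupffer, endothelial and stellate lists had 9, 10 and 10 of 10 higher. Their part in the falls was not tested, and the covariate fit given above cannot separate it from the weeks.

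**Figure D4:**
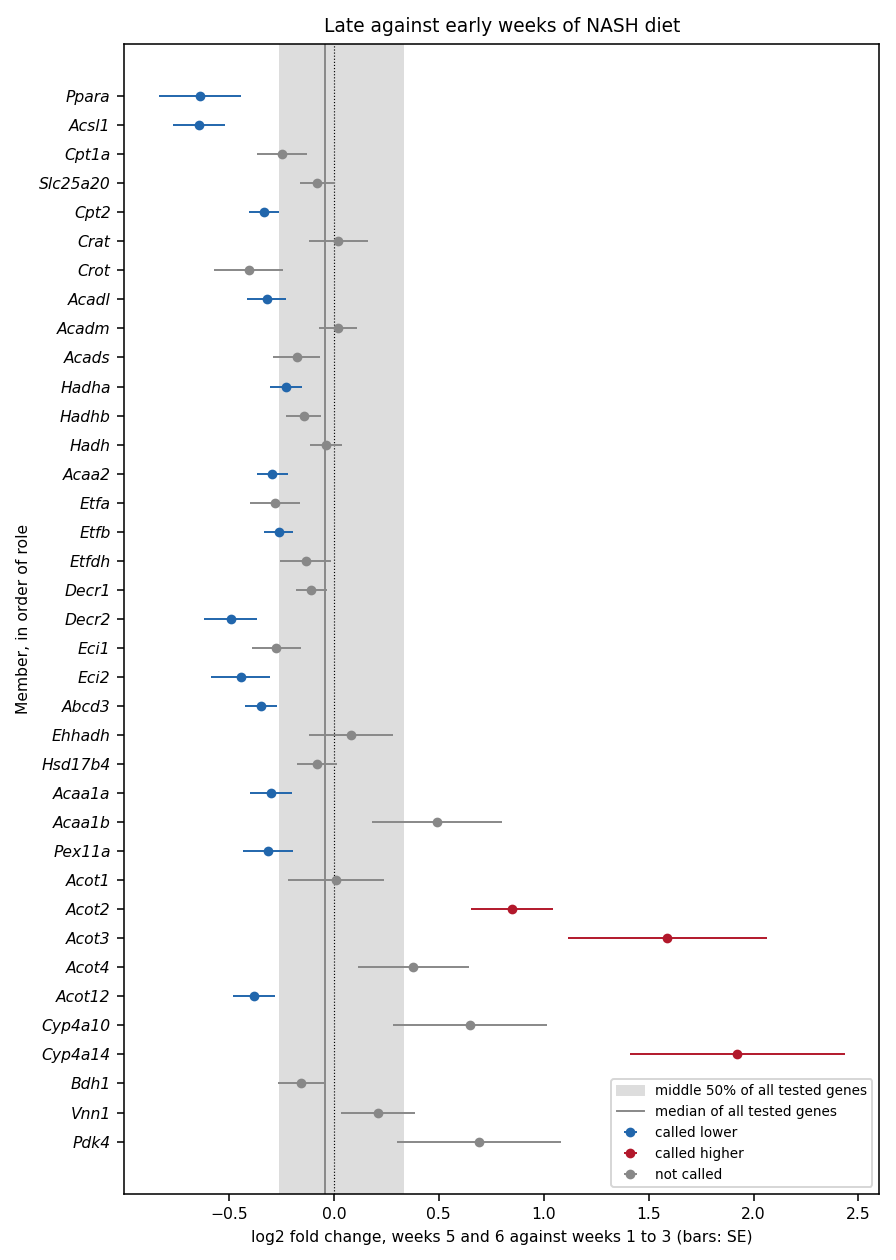
Log2 fold change with SE (x axis) of weeks 5 and 6 against weeks 1 to 3 for the 37 tested genes (y axis, in order of role). The grey band holds the central values, from -0.26 to 0.33, of all tested genes and the grey line their median, -0.04. The 13 genes called lower (blue) lie between -0.64 and -0.23 and 3 genes called higher (Acot2, Acot3, Cyp4a14) lie between 0.85 and 1.92. Only Acsl1 among the lower calls was kept with library size as the only scaling.

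The genes differed in how evenly their libraries agreed. Within groups, the SD on the log2 scale was 0.105 for Etfb, 0.114 for Cpt2 and 0.115 for Acaa2, and 0.752 for Acot3, 0.865 for Cyp4a10 and 1.16 for Cyp4a14. The distance between the highest and lowest group mean was 2.78 for Cyp4a14, 2.23 for Acot3, 1.83 for Cyp4a10, 1.44 for Acot2 and 1.36 for Vnn1, and 0.245 for Decr1. Acot2 and Vnn1 combined a wide distance between groups with a moderate SD, of 0.446 and 0.424, while Cyp4a10 had a wider SD and was not called.

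**Figure D5:**
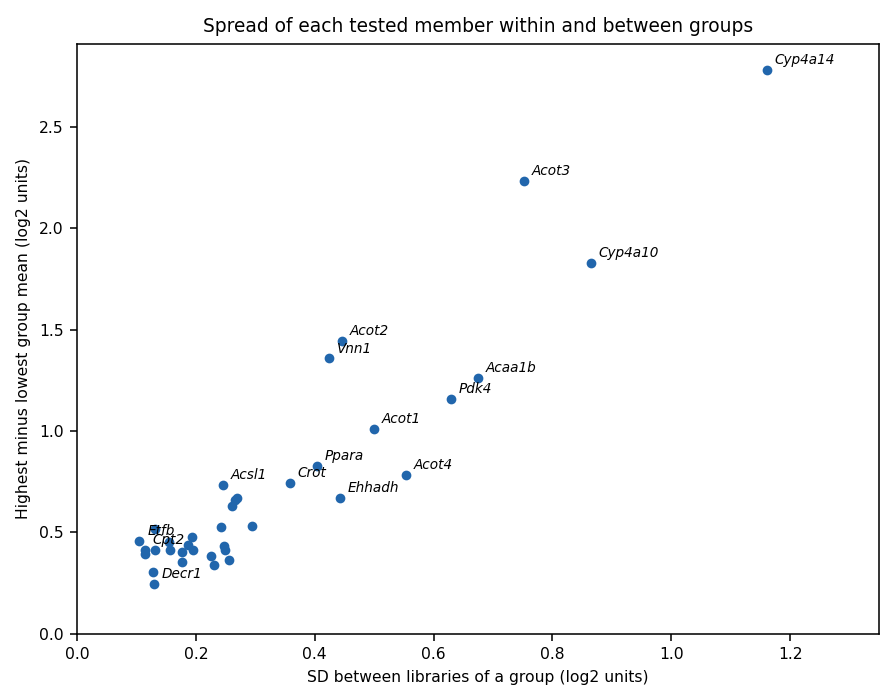
For each tested gene, the SD between libraries of a group (x axis, log2 units) and the distance between its highest and lowest group mean (y axis, log2 units). Each point is 1 gene. Cyp4a14, Acot3 and Cyp4a10 lie far out on both axes, Acot2 and Vnn1 are at 0.446 and 0.424 on the x axis, and most genes of the oxidation cycle lie at the lower left.

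Other genes of the same pathways were taken from 6 lists, 81 genes in all, of which 77 were tested and 44 were called in at least 1 comparison. Their counts stand beside 19.1% of all genes higher and 16.3% lower in week 5, 16.3% and 10.5% in week 6, and 20.5% and 18.4% in late against early weeks, and the differences from these shares were not tested. Of 14 tested targets of the receptor outside oxidation, 5 were higher and 2 lower in week 5, 4 and 1 in week 6, and 4 and 3 in late against early weeks, with medians of 0.46, 0.17 and -0.10. The higher share was 35.7% in week 5, and the lower share 14.3%. Cd36, a fatty acid uptake protein, rose from 12.8 CPM on normal diet to 70.8 CPM in week 5 (log2 2.46 ± 0.22, edgeR adjusted p = 1.72e-07). Ucp2, a mitochondrial carrier, rose from 8.05 CPM on normal diet to 46.2 CPM in week 5 (log2 2.48 ± 0.39, edgeR adjusted p = 7.39e-05), and Cidec, a lipid droplet protein, rose from 0.907 CPM on normal diet to 4 CPM in week 5 (log2 2.08 ± 0.51, edgeR adjusted p = 0.00262). Macrophages and endothelial cells also express Cd36 and Ucp2, and the part of the Kupffer and endothelial markers, which summed to 1646 to 1785 and 1309 to 1515 CPM in week 5, in these rises was not tested. Of 17 further genes of mitochondrial oxidation, activation and uptake, 0 were higher and 8 lower in week 5, 0 and 6 in week 6, and 0 and 8 in late against early weeks (medians -0.33, -0.39 and -0.29). The lower shares were 47.1%, 35.3% and 47.1%. Acacb, whose product malonyl-CoA blocks the carnitine shuttle, was called lower in every week but the third. It fell from 61.1 CPM on normal diet to 24.7 CPM in week 1 (log2 -1.31 ± 0.32, edgeR adjusted p = 0.0457), and by week 5 from 61.1 CPM on normal diet to 15.1 CPM in week 5 (log2 -2.02 ± 0.37, edgeR adjusted p = 0.000256). In week 3 it was at 32.9 CPM and not called (edgeR adjusted p = 0.228). Acsl4, which activates arachidonic acid, fell from 74.4 CPM on normal diet to 45 CPM in week 6 (log2 -0.73 ± 0.13, edgeR adjusted p = 0.000223), and Slc27a5, an acyl-CoA synthetase, from 541 CPM on normal diet to 359 CPM in week 5 (log2 -0.59 ± 0.12, edgeR adjusted p = 0.000452). Of 18 further peroxisomal genes, 1 was higher and 9 lower in week 5, 1 and 7 in week 6, and 1 and 9 in late against early weeks (medians -0.38, -0.35 and -0.31). The lower shares were 50%, 38.9% and 50%. Phyh, which starts alpha oxidation of branched chains, fell from 1490 CPM in early weeks to 1000 CPM in late weeks (log2 -0.58 ± 0.09, edgeR adjusted p = 1.78e-05). Slc25a17, a peroxisomal cofactor carrier, fell from 36.4 CPM in early weeks to 26 CPM in late weeks (log2 -0.48 ± 0.09, edgeR adjusted p = 0.000227), and Pecr, a peroxisomal enoyl-CoA reductase, fell from 264 CPM on normal diet to 160 CPM in week 5 (log2 -0.72 ± 0.14, edgeR adjusted p = 0.000265).

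Of 6 tested further thioesterases, 1 was higher and 1 lower in week 5, 2 and 0 in week 6, and 1 and 2 in late against early weeks. Acot9 rose from 2 CPM in early weeks to 4.3 CPM in late weeks (log2 1.11 ± 0.24, edgeR adjusted p = 0.000626) and Acot13 fell from 147 CPM in early weeks to 115 CPM in late weeks (log2 -0.35 ± 0.11, edgeR adjusted p = 0.0178). Acot11 rose from 1.5 CPM on normal diet to 6 CPM in week 4 (log2 1.94 ± 0.48, edgeR adjusted p = 0.0168). Of 6 genes of ketone body synthesis and export, 1 was lower in week 1, 1 was higher in week 4 (Acat1, a thiolase, named here after its values were seen, with edgeR adjusted p = 0.0448), 2 were lower in week 5 and 1 in week 6. Bdh2, another dehydrogenase of ketone bodies, fell from 24.4 CPM on normal diet to 15.2 CPM in week 1 (log2 -0.68 ± 0.14, edgeR adjusted p = 0.00706), and Slc16a1, a transporter of ketone bodies and lactate, fell from 56.5 CPM on normal diet to 36.2 CPM in week 5 (log2 -0.64 ± 0.21, edgeR adjusted p = 0.0198). Of 16 partners and coregulators of the receptor, 1 was higher and 2 lower in week 5, 0 and 1 in week 6, and 0 and 3 in late against early weeks. The lower shares of 12.5%, 6.25% and 18.8% were under or near those of all genes. Rxra, the heterodimer partner, fell from 164 CPM in early weeks to 131 CPM in late weeks (log2 -0.33 ± 0.07, edgeR adjusted p = 0.00111). Ppargc1a, a coactivator, fell from 19.7 CPM on normal diet to 9.31 CPM in week 5 (log2 -1.08 ± 0.25, edgeR adjusted p = 0.00169), and Ncor1, a corepressor, fell from 243 CPM in early weeks to 189 CPM in late weeks (log2 -0.36 ± 0.09, edgeR adjusted p = 0.0033). As for the 37 genes above, lower values are relative to the composition of each library.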

How the data were processed

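The deposited table holds raw read counts per gene symbol, with 25 columns and no normalization. Reads came from a 3' tag kit (QuantSeq FWD). Per the submitters' processing notes, FastQC, cutadapt and STAR 2.7.1a were used with build GRCm39. The counting tool, its strand setting and the annotation were not given in the sources used here. Columns named WD with a week and a number were matched to the titles with the same week and number.

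Counts were analysed in R 4.3.3 with edgeR 4.0.16: filterByExpr by group kept 11869 genes, libraries were scaled by TMM, and a robust quasi-likelihood model of 7 groups (18 residual degrees of freedom, median biological coefficient of variation 0.179) was fitted to all 25 libraries, with 8 contrasts. P-values were adjusted by Benjamini-Hochberg over all genes tested, and the threshold was 0.05. The SE is the log2 fold change divided by the square root of F. Mean log2 levels used a prior count of 2. The procedure was tested on simulated data.

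The genes, the pathway lists and the marker lists were chosen with earlier results of these data known. Values of every library are given for the 12 genes with the smallest adjusted p in any comparison, and for others where the text turns on them. From each pathway list, up to 3 called genes with the smallest adjusted p are named. A single such gene is not reported here. Alternatives were DESeq2 1.42.0, limma 3.58.1 (voom), 2 other scalings, 2 other filters, a fit of only the groups compared, the replicate numbers as a block, a marker covariate, normal diet without libraries 1 and 5, and each library left out in turn. Libraries of a group differed by 5.67 to 33.5 times the sampling noise (chi-square per degree of freedom), which separate libraries of 1 mouse would show too.

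Shared 3' ends were runs of 50 bases in the last 300 bases of transcripts (GENCODE M21, GRCm38), a build other than that of the counts, so no count was assigned by position.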

Additional observations from a re-analysis of the deposited data

Results flagged for a closer look

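Levels of each of the 37 tested genes were looked at in the groups with 4 or more libraries for a library whose gap to its nearest neighbour was a large part of the whole range of the group. This was so in 9 of 111 such groups, and chance gives it in about 1 in 20. Normal diet library 1 was the highest of its group for Ppara (251 CPM), Acsl1 (1294 CPM) and Eci1 (142.8 CPM). Normal diet library 4 was the lowest for Etfb (353 CPM), and normal diet library 5 the highest for Acot4 (8.117 CPM). Week 3 library 4 stood apart for Acads (221.7 CPM), Hadhb (62.39 CPM) and Pdk4 (1.864 CPM), and week 3 library 3 for Acadm (189.1 CPM). Without normal diet libraries 1 and 5, Acsl1 lost its calls of weeks 5 and 6, and Cpt2, Etfa and Etfb theirs of week 6.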

How the results depend on the processing

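Of 349 results of called genes under other settings, 268 kept their direction and call, 77 kept their direction without the call and 4 reversed. Of 433 with 1 library left out, 388 kept the call, 45 lost it and 0 reversed. The reversals were Etfb in week 6 with library size alone (0.00358759) and, late against early with the marker covariate, Ppara (0.00100096), Hadha (0.0225891) and Acaa1a (0.0465297). Of the 35 calls, 33 were kept with DESeq2 size factors, 13 with library size alone, 31 without a filter, 32 of 34 with at least 5 CPM in 3 libraries, 34 with DESeq2, 35 with limma voom and 30 without normal diet libraries 1 and 5. The count of called genes became 2 in week 1, with Acot3 added, and 4 in week 4, with Hadh and Cyp4a14 added, under DESeq2. Of all genes DESeq2 called 65 higher and 202 lower in week 1, and 884 and 444 in week 4. Limma voom gave 4 in week 4, with Cyp4a10 and Cyp4a14 added, beside 607 higher and 353 lower of all genes. Without a filter week 4 had 1, beside 490 higher and 180 lower of all genes. With only the groups compared the count of the 37 was 0 in week 1, 0 in week 4, 4 in week 6 and 0 for weeks 1 to 3. All genes then gave 13 higher and 98 lower, 134 and 109, 1504 and 590, and 45 and 182. With library size alone the count of the 37 was 6 in week 4, 2 in week 6, 2 for weeks 1 to 3 (with Cpt1a added) and 5 late against early. The median of the 37 genes was then 0.295, 0.331, 0.133 and 0.057 in weeks 4, 5 and 6 and late against early. With the marker covariate the count of the 37 was 0 in weeks 4, 5 and 6 and late against early. Of all genes that fit called 14 higher and 40 lower in week 4, and 4 and 20 in week 6. Without normal diet libraries 1 and 5 the count of the 37 was 3 in week 6, beside 1430 higher and 831 lower of all genes. With 1 library left out the counts of the 37 ranged from 0 to 2 in week 1, 1 to 4 in week 4, 6 to 10 in week 5, 4 to 8 in week 6, 0 to 2 for weeks 1 to 3 and 13 to 18 late against early. The labels' replicate numbers did not pair the groups compared: deviations of same-numbered libraries correlated at -0.441 to 0.406, over 0.1 in 14 of 66 pairs (in all 3 between weeks 1 and 2, at 0.358, 0.406 and 0.378), and a library correlated best with its own number in 74 of 264 cases. With the numbers as a replicate block the counts were 1, 0, 0, 2, 9 and 7 in weeks 1 to 6, 1 for weeks 1 to 3 and 16 late against early, with Acot2 in week 4 and Etfa in week 6 lost (edgeR adjusted p = 0.0939 and 0.0645), Cyp4a14 in weeks 4 and 6 (0.0435 and 0.0368) and Cyp4a10 in week 5 (0.0408) added, and 33 of 35 calls kept. The cause of these differences was not tested. Depth limits Acot3, Acadvl, Acot8 and Pdk4, each with at most 44 counts in any group, and groups of 3 to 5 libraries limit every weekly comparison.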
